A study of Mus musculus with 4 samples.

Results

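*Ccl24*, *Ccl17*, *Ccl22*, *Ccr4*, *Mgl2*, *Retnla*, and *Chil3* are 7 of the 27998 genes counted in single cells from the spinal cords (SCs) of mice with experimental autoimmune encephalomyelitis (EAE), and of the 19905 genes with a transcript in a barcode of at least 2000 unique molecular identifiers (UMIs). A UMI marks 1 captured transcript, so that its PCR copies are counted once. The genes were picked by name: *Ccl24* and *Ccl17* for their higher level in the library from mice given the Ang2-blocking antibody, *Chil3* for its higher level in the library from mice with Ang2-overexpressing endothelium, and the others as partners or companions in alternative activation. The differences that led to the choice are therefore given as descriptions, without a test. EAE was induced in every mouse by immunization with a peptide of myelin oligodendrocyte glycoprotein in complete Freund's adjuvant, and pertussis toxin followed at a lower dose in the overexpression pair than in the wild-type mice. The blockade pair held SCs at 14 days post immunization (dpi) from C57Bl/6JOlaHsd wild-type mice aged 15 weeks that had received, from EAE induction on, either the isotype control antibody mIgG1 or the Ang2-blocking antibody (Ang2 Ab). The overexpression pair held SCs at 12 dpi from C57Bl/6JCrl mice aged 12 to 14 weeks, namely mice with both the VE-cadherin-tTA and the Tet-OS-Ang2 transgene (EC-Ang2) and littermates with 1 of them (Ctrl). In EC-Ang2 mice the VE-cadherin promoter drives the transactivator in ECs, and doxycycline food given to pregnant females until birth kept the transgene off before then. Each condition was 1 library, for which viable CD45+ immune cells and as many CD31+ ECs had been sorted, and the number of mice behind a library is not given in the sources used here.

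Alternative activation is the state that macrophages enter when IL-4 or IL-13 signals through IL-4Rα and the transcription factor STAT6. CCL17 and CCL22 are chemokines made by dendritic cells and by macrophages in that state, and both act on CCR4, a receptor of Th2 and regulatory T cells, whereas CCL24 (eotaxin-2) acts on CCR3, a receptor of eosinophils. *Mgl2* encodes a C-type lectin (CD301b) that binds galactose-type sugars, and *Retnla* (RELMα, FIZZ1) and *Chil3* (YM1, a chitinase-like protein) encode secreted proteins often read as marks of alternative activation, although monocytes and neutrophil precursors also make *Chil3*.

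*Ccl17* and *Ccl22* are neighbours on mouse chromosome 8 (GRCm38), on the same strand with 58753 bases between them, and most carriers of *Ccl22* also carried *Ccl17*. The bases before each gene, taken from RefSeq on GRCm38.p6, are shown as a description, and their part in the levels was not tested. The *Ccl17* window is chr8:94810203-94810452 and the *Ccl22* window chr8:94745434-94745589, both on the plus strand and both ending at the base before the GENCODE gene start. Capitals mark matches to TTCNNNNGAA, the STAT6 palindrome.
Ccl17: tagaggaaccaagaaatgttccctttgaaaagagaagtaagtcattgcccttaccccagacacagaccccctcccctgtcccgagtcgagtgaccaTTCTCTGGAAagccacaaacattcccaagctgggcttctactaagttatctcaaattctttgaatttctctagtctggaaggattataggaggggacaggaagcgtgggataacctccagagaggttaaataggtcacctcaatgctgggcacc
Ccl22: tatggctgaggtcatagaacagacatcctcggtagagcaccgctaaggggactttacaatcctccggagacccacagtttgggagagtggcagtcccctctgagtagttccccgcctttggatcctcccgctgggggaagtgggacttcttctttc
The *Ccl17* window held 1 match to the STAT6 letters, 154 to 145 bases before the gene. The *Ccl22* window, with 156 bases shorter than the 250 of *Ccl17*, held none, which says only that these letters are not in it. Of 32851 RefSeq promoters, 5.85% held the STAT6 letters in 250 bases, on either strand, since the motif reads the same on both. *Ccr4*, *Mgl2*, *Retnla*, and *Chil3* were also in the promoter table, and among them *Retnla* alone held a match. *Ccl24* had no entry there and was not searched. Such a match is a description of the letters and not a binding site.

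Barcodes of at least 2000 UMIs numbered 7012, 7498, 6643, and 5427 in the libraries mIgG1, Ang2 Ab, Ctrl, EC-Ang2, and sets of 4 values keep this order. By panels of immune and EC genes, 3725, 3653, 2722, and 2795 of these were immune cells, with a median of 7834, 5969, 6633, and 7238 UMIs, and 3076, 3553, 3671, and 2457 were ECs. A level is the sum of a gene's UMIs over a population in 1 library per 1000000 UMIs of that population (CPM). Since each condition is a single library, differences between conditions have no test, and the 95% intervals (exact Poisson for levels, exact binomial for shares and ratios) cover counting error and not how mice vary. *Angpt2*, which encodes Ang2 and is the transgene, stood at 1035 CPM in ECs of EC-Ang2 and at 63.0 CPM in those of Ctrl. In the blockade pair it stood at 305 CPM in ECs of Ang2 Ab and at 49.3 CPM in those of mIgG1. Between 51 and 77 of the barcode sequences of 1 library recurred in another, and none of these barcodes had at least 2 UMIs of *Ccl24* or of *Ccl17* in both libraries. For the more widely carried *Chil3*, 0 to 12 barcodes did. Classes of immune cells were named by markers after clustering each pair without the 7 genes, and the ending -like says that the names rest on transcripts alone. The share of immune cells differed between libraries: macrophage-like cells made up 44.5%, 49.9%, 35.2%, and 61.9%, and microglia-like cells 5.50%, 8.32%, 35.5%, and 4.44%. An unnamed cluster of the blockade pair, with 187 mIgG1 and 169 Ang2 Ab cells, was led by *Tspan7* and *Cst7*, which also led a microglia-like cluster of the overexpression pair, and it is not counted in these shares. Nor are its unnamed clusters led by *Ms4a7* and *Apoe* (520 and 209 cells) and by *Atp6v0d2*, *Fabp5*, and *Gpnmb* (367 and 311 cells). Clusters led by these genes were macrophage-like in the overexpression pair, so shares of named and unnamed cells are not alike between pairs.

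Over all immune cells, *Ccl24*, *Ccl17*, and *Ccl22* were at least 2-fold higher in Ang2 Ab than in mIgG1, and none of the 6 measurable genes was 2-fold lower. Among the 11429 genes with at least 50 UMIs in the pair, 2.00% were 2-fold higher and 0.525% were 2-fold lower. In EC-Ang2 relative to Ctrl, *Chil3* was at least 2-fold higher and *Mgl2* at least 2-fold lower, against 1.83% and 9.81% of 11087 genes. *Retnla* was at or near 0 in the cells of every library and has no ratio. Because 3 of the 7 genes were picked for these contrasts and the others beside them, the counts describe the choice and nothing is read from them.

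**Figure D1:**
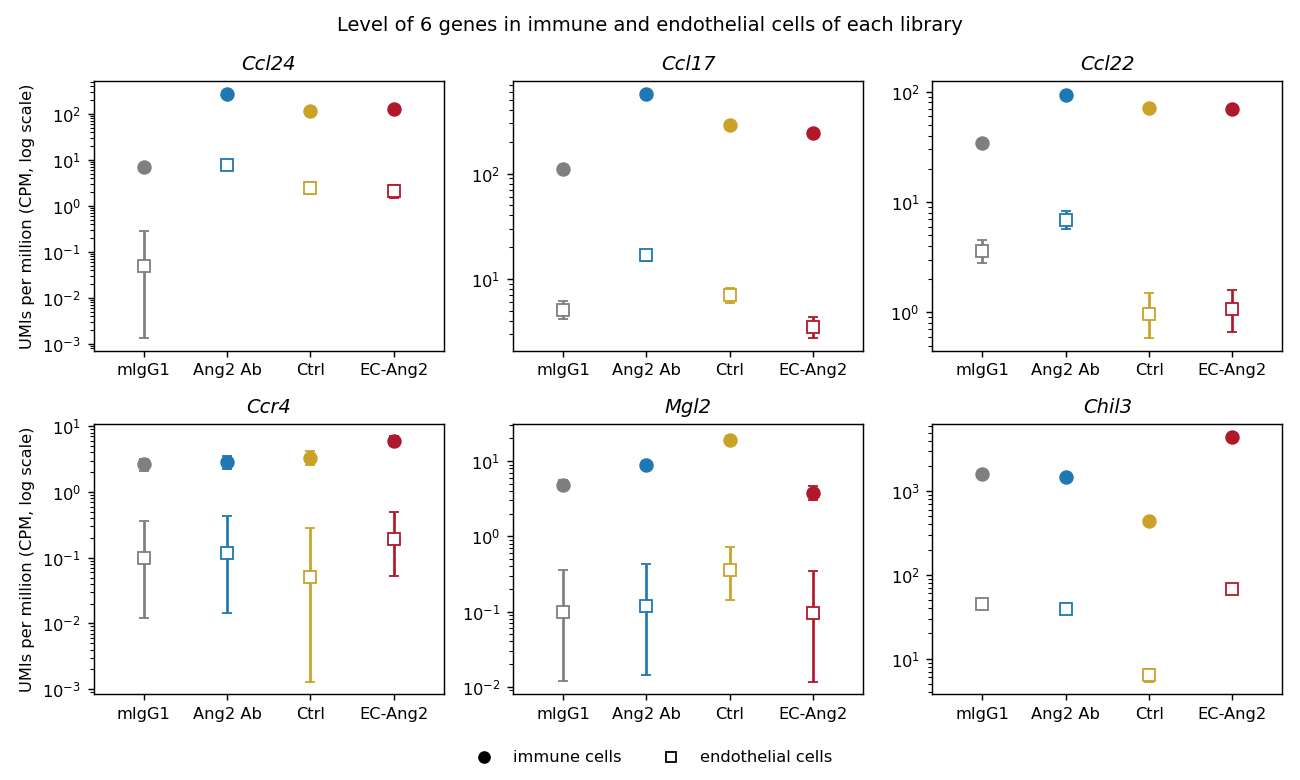
Level of 6 genes (CPM, log scale) in immune cells and in ECs of each library, with exact 95% Poisson intervals. *Ccl24* in immune cells stands at 7.09 CPM in mIgG1 and between 113 and 273 CPM in the other 3 libraries, and *Chil3* runs from 441 CPM in Ctrl to 4467 CPM in EC-Ang2.

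*Ccl24*, on chromosome 5 from 135569937 to 135573049 (minus strand), encodes the CCR3 ligand eotaxin-2. Its level in immune cells was 7.09 CPM in mIgG1 (240 UMIs, interval 6.22 to 8.05), 273 CPM in Ang2 Ab (7405 UMIs, 267 to 279.6), 113 CPM in Ctrl (2427 UMIs, 109 to 118), and 124 CPM in EC-Ang2 (2779 UMIs, 119.7 to 129). The mIgG1 library was the lowest by far, and the other 3 lay closer to each other. Ang2 Ab stood 38.5-fold above mIgG1 (log2 ratio 5.27, 5.08 to 5.46), and 3 of the 11429 genes had a larger ratio. EC-Ang2 stood 1.10-fold above Ctrl (log2 0.13, 0.05 to 0.21). The Ctrl library in turn was 16.0-fold above mIgG1, although both were the controls of their pair. These 2 libraries differ in substrain, age, day, pertussis toxin dose, antibody, and transgene, and the contribution of each cannot be told apart, nor from a difference between single libraries.

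Few cells accounted for the *Ccl24* UMIs. At least 50% of them sat in 3 cells of mIgG1 and 48 of Ang2 Ab, and in 9 of Ctrl and 22 of EC-Ang2, and the 10 cells with the most held 74.6%, 17.6%, 55.4%, and 31.8%. The cell with the most held 56, 165, 260, and 186 UMIs. The share of immune cells with a *Ccl24* UMI was 1.503% (1.14% to 1.95%), 17.2% (16.0% to 18.5%), 5.69% (4.85% to 6.63%), and 9.55% (8.49% to 10.7%) in the same order. Ang2 Ab thus differed from mIgG1 in the number of cells that carried the gene as well as in the sum. Free RNA from broken cells can give single UMIs in cells that do not transcribe a gene, and ECs, which should lack *Ccl24*, carried a UMI in 0.0325%, 3.52%, 1.01%, and 1.75%. Their median depths were 4852, 3681, 4331, and 6150 UMIs. With every cell thinned to 2000 UMIs, the shares were 0.617%, 10.3%, 3.01%, and 4.90% in immune cells and 0, 1.52%, 0.463%, and 0.407% in ECs. The immune share was above the EC share in every library on both counts.

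In the blockade pair the level in ECs moved with that in immune cells, with 0.0499 CPM (1 UMI) in mIgG1 and 7.69 CPM (131 UMIs) in Ang2 Ab. Barcodes of 10 to 100 UMIs, which are close to empty droplets, stood at 15.4 and 104 CPM, in mIgG1 above its immune cells. Those of 101 to 499 UMIs lay closer, at 49.1 and 65.8 CPM. Ctrl and EC-Ang2 stood at 2.48 and 2.08 CPM in ECs and at 36.4 and 32.7 CPM close to empty, with overlapping intervals. After subtraction of the EC level, the log2 ratio of Ang2 Ab to mIgG1 immune cells was 5.24.

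Carriers of *Ccl24*, counted as immune cells with at least 2 of its UMIs, numbered 20, 377, 78, and 145 in the order above, with a median of 3, 8, 9, and 8 *Ccl24* UMIs. Macrophage-like cells made up 8, 228, 68, and 138 of them, and unnamed clusters 9, 132, 0, and 0. The unnamed clusters of the blockade pair include that led by *Atp6v0d2*, *Fabp5*, and *Gpnmb*, genes that led a macrophage-like cluster in the overexpression pair. Dendritic cell–like carriers numbered 0, 0, 0, and 1. The genes that marked the carriers most in the median over libraries were *Hbegf*, *Ccl6*, *Spp1*, *Timp1*, *Arg1*, *Olr1*, *F7*, *Ccl9*, *Vat1*, and *Scd2*. *Spp1*, which encodes osteopontin, was 3.82-fold, 2.87-fold, 9.33-fold, and 2.46-fold higher in carriers than in the other immune cells of mIgG1, Ang2 Ab, Ctrl, and EC-Ang2. *Arg1*, which encodes arginase 1, the classical marker enzyme of alternative activation, was 2.72-fold, 2.45-fold, 5.30-fold, and 2.42-fold higher. *Ccl6*, a CC chemokine of macrophages, was 4.08-fold, 3.34-fold, 5.02-fold, and 3.68-fold higher. A *Ccl6* UMI was also found in 58.4% to 81.8% of the other immune cells, so that it marked the carriers by amount rather than by presence.

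Within macrophage-like cells alone, which was compared after the data had been seen, *Mmp12*, a macrophage elastase, led the genes of *Ccl24* carriers. It was 3.25-fold higher in carriers than in other macrophage-like cells of Ang2 Ab, 10.4-fold in Ctrl, and 1.47-fold in EC-Ang2, and mIgG1 had too few carriers for the ratio. *Pdcd1lg2*, which encodes PD-L2, a surface ligand induced in alternative activation, was 2.11-fold, 2.42-fold, and 2.48-fold higher in the same libraries.

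The difference between Ang2 Ab and mIgG1 was found in several classes. Macrophage-like cells went from 10.2 to 426 CPM (log2 5.38, 5.12 to 5.64), unnamed clusters from 6.67 to 282 CPM (log2 5.40), and microglia-like cells from 2.48 to 82.9 CPM (log2 5.06). The microglia-like value rests on 6 and 243 UMIs, of which 2 cells held at least 50%. Of these UMIs, 2 and 234 were in a microglia-like cluster led by *Pbk* and *Cenpe*, in which 100% of cells were cycling. The microglia-like cluster with *Gpr34* and *P2ry12* among its leading genes stood at 3.88 and 7.21 CPM, from 4 and 8 UMIs. Granulocyte-like cells held 3 and 13 UMIs, and the interval of their ratio spanned 0 (log2 0.74, −1.12 to 3.19). Among single clusters, the highest Ang2 Ab level was 902 CPM in a macrophage-like cluster led by *Mmp12* and *Clec1b*, which stood at 14.1 CPM in mIgG1. A macrophage-like cluster led by *Il12a* and *Nos2*, genes of classical activation, went from 36.5 to 538 CPM. An unnamed cluster led by *Atp6v0d2*, *Fabp5*, and *Gpnmb* went from 5.89 to 445 CPM, and a macrophage-like cluster led by *Ccr2* from 3.28 to 222 CPM. *Ccl24* was thus spread over clusters with different leading genes in the Ang2 Ab library.

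For EC-Ang2 and Ctrl, macrophage-like cells stood at 228 CPM in Ctrl and 171 CPM in EC-Ang2 (log2 −0.41, −0.50 to −0.33), the reverse of the direction over all immune cells, where EC-Ang2 held more macrophage-like cells. A cluster led by *Gpnmb*, with 78 Ctrl and 454 EC-Ang2 cells, went from 778 to 248 CPM, the cluster led by *Nos2* from 468 to 251 CPM, and the cluster led by *Ms4a7* and *Apoe* from 6.37 to 71.5 CPM. Microglia-like cells went from 41.6 to 7.50 CPM, of which 260 of the 302 Ctrl UMIs sat in 1 cell.

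**Figure D2:**
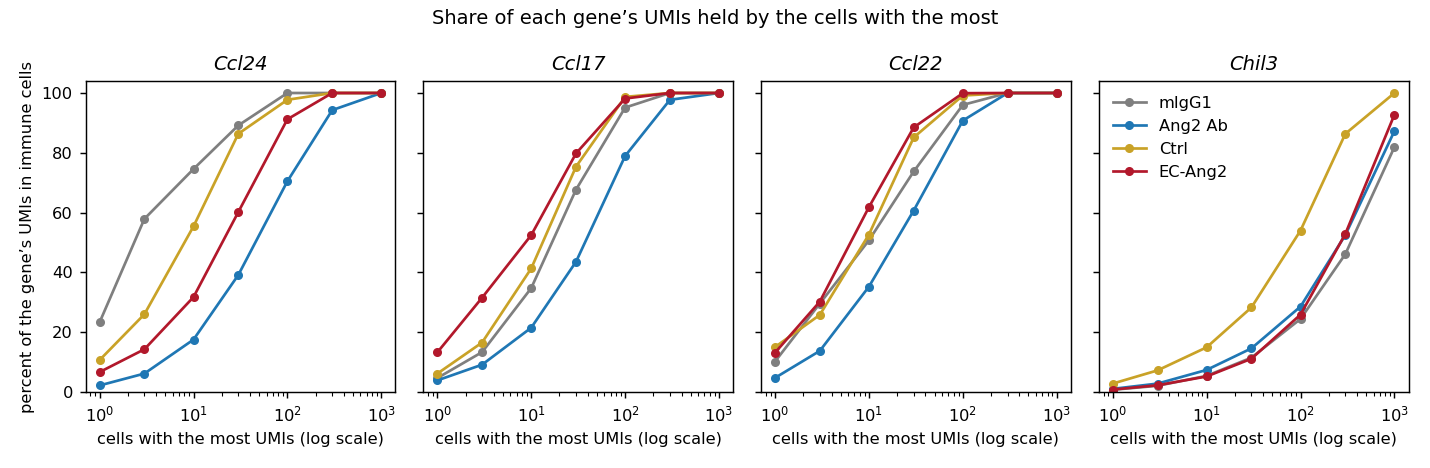
Percent of a gene's UMIs in immune cells (linear axis) held by the cells with the most of it (number of cells, log scale), for 4 genes and the 4 libraries. The *Ccl24* curve of mIgG1 passes 50% at 3 cells and that of Ang2 Ab at 48, whereas *Chil3* needs 87 to 348 cells.

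*Ccl17*, on chromosome 8 from 94810453 to 94812036 (plus strand), encodes a ligand of CCR4. Its level in immune cells was 111 CPM in mIgG1 (3754 UMIs, 107 to 115), 569 CPM in Ang2 Ab (15416 UMIs, 560.0 to 578), 289 CPM in Ctrl (6189 UMIs, 282 to 296), and 240.2 CPM in EC-Ang2 (5372 UMIs, 234 to 247). The order was that of *Ccl24* at both ends, with mIgG1 lowest and Ang2 Ab highest, while Ctrl and EC-Ang2 changed places. Ang2 Ab stood 5.13-fold above mIgG1 (log2 2.36, 2.31 to 2.41), and 21 of 11429 genes had a larger ratio. EC-Ang2 stood at a log2 ratio of −0.27 to Ctrl (−0.32 to −0.21), and Ctrl at 1.38 to mIgG1 (1.32 to 1.44).

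*Ccl17* was likewise concentrated. At least 50% of its UMIs sat in 17, 39, 14, and 9 cells in the same order, and 1 EC-Ang2 cell held 713. A UMI was found in 6.23%, 17.1%, 6.58%, and 6.73% of immune cells, and in 3.70%, 10.3%, 4.00%, and 4.26% at 2000 UMIs per cell. In ECs the shares were 2.28%, 5.94%, 1.96%, and 2.65%, and thinned 0.910%, 2.87%, 1.09%, and 0.611%. mIgG1, Ctrl, and EC-Ang2 held *Ccl17* in nearly the same share of immune cells, and Ang2 Ab in a larger one.

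The carriers of *Ccl17* numbered 131, 328, 101, and 111. In mIgG1, 87 of them were dendritic cell–like and 29 macrophage-like, whereas in Ang2 Ab 131 were dendritic cell–like and 147 macrophage-like. Within the overexpression pair the dendritic cell–like class holds 1 cluster, led by *Cacnb3* and *Ccr7*, with 18 Ctrl and 33 EC-Ang2 carriers. A cluster led by *Kmo*, *H2-DMb2*, *Clec10a*, and *Flt3*, genes of dendritic cells, stayed unnamed under the naming rule and held 30 and 37 carriers. Macrophage-like carriers numbered 37 and 40. The leading genes over all carriers were *Ccr7*, *Fscn1*, *Il4i1*, *H2-DMb2*, *Serpinb6b*, *Ramp3*, *Gnb4*, *Serpinb9*, *Spint2*, and *Actn1*. *Ccr7*, the receptor that guides mature dendritic cells to lymph nodes, was 24.8-fold, 24.2-fold, 26.7-fold, and 59.7-fold higher in carriers than in the other immune cells of mIgG1, Ang2 Ab, Ctrl, and EC-Ang2. *H2-DMb2*, which encodes a chain of the peptide-loading chaperone of MHC class II, was 15.2-fold, 8.63-fold, 8.94-fold, and 13.4-fold higher.

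Macrophage-like carriers of *Ccl17* were marked mostly by other genes. *Dcstamp*, which encodes a protein of cell fusion in osteoclasts and macrophages, was 12.5-fold, 8.39-fold, 8.55-fold, and 13.1-fold higher in them than in other macrophage-like cells of mIgG1, Ang2 Ab, Ctrl, and EC-Ang2. *Mmp12* was 4.71-fold, 5.59-fold, 3.80-fold, and 5.55-fold higher, and *Pdcd1lg2* 4.22-fold, 2.61-fold, 3.06-fold, and 5.90-fold. Of the 10 genes that marked carriers over all immune cells, 2 were also among the 10 within macrophage-like cells, namely *H2-DMb2* and *Actn1*. The 10 within that class were, in order, *Dcstamp*, *Mmp12*, *H2-DMb2*, *Procr*, *Pdcd1lg2*, *Itgax*, *Timp1*, *Ccnd2*, *Actn1*, and *Fam177a*.

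The difference between Ang2 Ab and mIgG1 in *Ccl17* was larger in macrophage-like cells than in dendritic cell–like cells. Macrophage-like cells went from 45.6 to 647 CPM (log2 3.83, 3.70 to 3.95) and dendritic cell–like cells from 2167 to 4429 CPM (log2 1.03, 0.97 to 1.10), and the difference between the classes was not tested. Within the dendritic cell–like class, the cluster led by *Plet1*, *Itgae*, and *Xcr1* went from 1988 to 3909 CPM and the cluster led by *Fscn1* and *Ccr7* from 2761 to 5720 CPM. Among macrophage-like clusters, that led by *Mmp12* went from 7.52 to 899 CPM, that led by *Nos2* and *Il12a* from 34.8 to 988 CPM, and that led by *Ccr2* from 106 to 736 CPM. The ratio was thus smaller in the class with the higher *Ccl17* level.

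Between Ctrl and EC-Ang2, *Ccl17* went from 228 to 131 CPM in macrophage-like cells (log2 −0.80) and from 6108 to 4620 CPM in dendritic cell–like cells (log2 −0.40). In the unnamed cluster led by *Kmo*, the level was 1958 CPM in Ctrl and 2856 CPM in EC-Ang2 (log2 0.54). In microglia-like cells it was 83.4 CPM in Ctrl, from 606 UMIs of which 2 cells held at least 50%, and 2.25 CPM in EC-Ang2, from 3 UMIs. Of the Ctrl UMIs, 218 and 329 were in clusters of largely cycling cells led by *Cdkn3* and by *Esco2*.

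**Figure D3:**
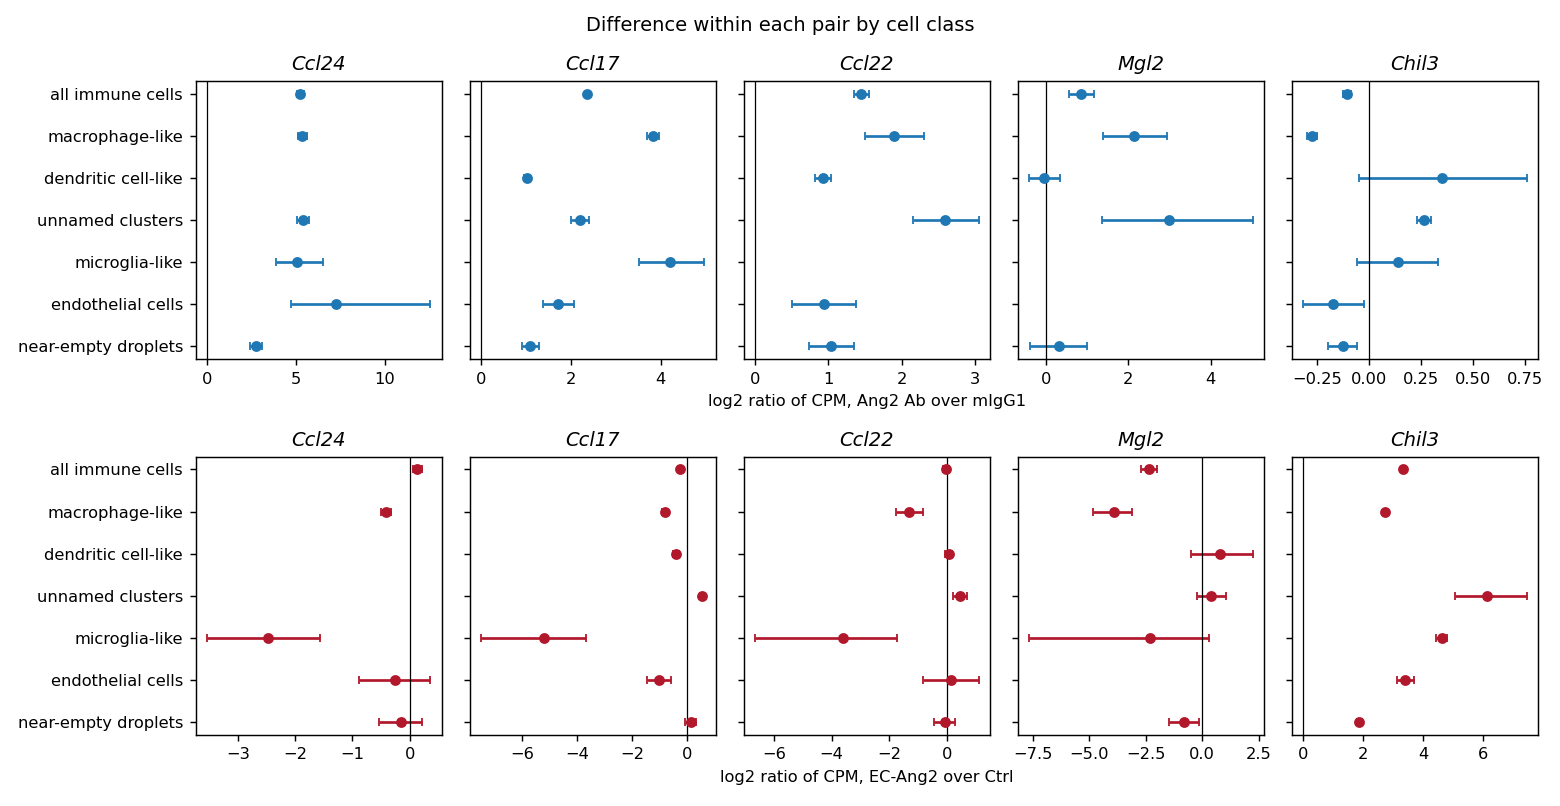
Log2 ratio of CPM, Ang2 Ab over mIgG1 (top) and EC-Ang2 over Ctrl (bottom), for 5 genes by cell class, with exact 95% intervals that cover counting error only. A class without UMIs on a side, or with few UMIs over both libraries, has no point, and the axes differ between panels. *Ccl24* is higher by 5.38 in macrophage-like cells of the blockade pair, *Ccl17* is higher by 3.83 in macrophage-like and by 1.03 in dendritic cell–like cells, and *Chil3* lies above 0 in each class drawn of the overexpression pair.

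*Ccl22*, on chromosome 8 from 94745590 to 94751699 (plus strand), encodes the other ligand of CCR4. Its level in immune cells was 34.1 CPM in mIgG1 (1155 UMIs, 32.2 to 36.2), 93.2 CPM in Ang2 Ab (2525 UMIs, 89.6 to 96.9), 71.6 CPM in Ctrl (1534 UMIs, 68.1 to 75.3), and 69.9 CPM in EC-Ang2 (1564 UMIs, 66.5 to 73.5). As with *Ccl17*, mIgG1 was lowest and Ang2 Ab highest, and the intervals of Ctrl and EC-Ang2 overlapped. Ang2 Ab stood at a log2 ratio of 1.45 to mIgG1 (1.35 to 1.55), which 83 of 11429 genes exceeded, and EC-Ang2 at −0.03 to Ctrl (−0.14 to 0.07). At least 50% of the UMIs sat in 10, 20, 10, and 7 cells.

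Of the 86, 138, 69, and 60 carriers of *Ccl22*, 70, 109, 24, and 37 were dendritic cell–like and 10, 16, 15, and 7 macrophage-like. In Ctrl the dendritic cell–like share was 34.8%, and in EC-Ang2 it was 61.7%. Another 23 Ctrl and 14 EC-Ang2 carriers were in the unnamed cluster led by *Kmo*, *H2-DMb2*, *Clec10a*, and *Flt3*, genes of dendritic cells. The macrophage-like share was 21.7% in Ctrl and 11.6% to 11.7% in mIgG1, Ang2 Ab, and EC-Ang2. The part of the naming rule in the low share of Ctrl was not tested. The leading genes over all *Ccl22* carriers were *Fscn1*, *Ccr7*, *Cacnb3*, *Il4i1*, *Serpinb6b*, *Bcl2l14*, *Tbc1d4*, *Serpinb9*, *Gnb4*, and *Ramp3*. *Ccr7* was 104-fold, 125-fold, 82.0-fold, and 164-fold higher in *Ccl22* carriers than in the other immune cells of mIgG1, Ang2 Ab, Ctrl, and EC-Ang2, and a *Ccr7* UMI was found in 76.7%, 83.3%, 65.2%, and 90.0% of them. *Fscn1*, which encodes an actin-bundling protein of mature dendritic cells, was 109.8-fold, 131-fold, 9.50-fold, and 155-fold higher. A *Fscn1* UMI was found in 24.9% of the other Ctrl immune cells and in 3.44% to 6.26% of those in the other libraries.

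In dendritic cell–like cells *Ccl22* went from 779 CPM in mIgG1 to 1488 CPM in Ang2 Ab (log2 0.93, 0.82 to 1.04), close to the ratio of *Ccl17* in that class. In macrophage-like cells it went from 5.56 to 20.6 CPM (log2 1.89), from 69 and 242 UMIs. *Ccl17* stood at 3.83 there, so that the ratios of the neighbours lay further apart than in dendritic cell–like cells. *Ccl22* carriers within the macrophage-like class could be ranked in 3 libraries and were led by *Ccr7*, *Ramp3*, *Serpinb9*, and *H2-DMb2*. Of the 10 genes that marked *Ccl22* carriers over all immune cells, 3 were among the 10 in that class. In EC-Ang2 relative to Ctrl, dendritic cell–like cells stood at a log2 ratio of 0.07 (4543 and 4767 CPM) and macrophage-like cells at −1.30 (10.6 and 4.32 CPM). Between 69.8% and 83.3% of *Ccl22* carriers were *Ccl17* carriers in the 4 libraries, and 34.5% to 51.5% of *Ccl17* carriers were *Ccl22* carriers. *Ccl24* and *Ccl17* shared 0, 41, 11, and 5 carriers. In Ang2 Ab these were 10.9% of *Ccl24* and 12.5% of *Ccl17* carriers, close to the 8.98% and 10.3% of all immune cells that carried *Ccl17* and *Ccl24*. In Ctrl they were 14.1% of *Ccl24* carriers, where 3.71% of immune cells carried *Ccl17*, and in EC-Ang2 3.45%, where 3.97% did.

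**Figure D4:**
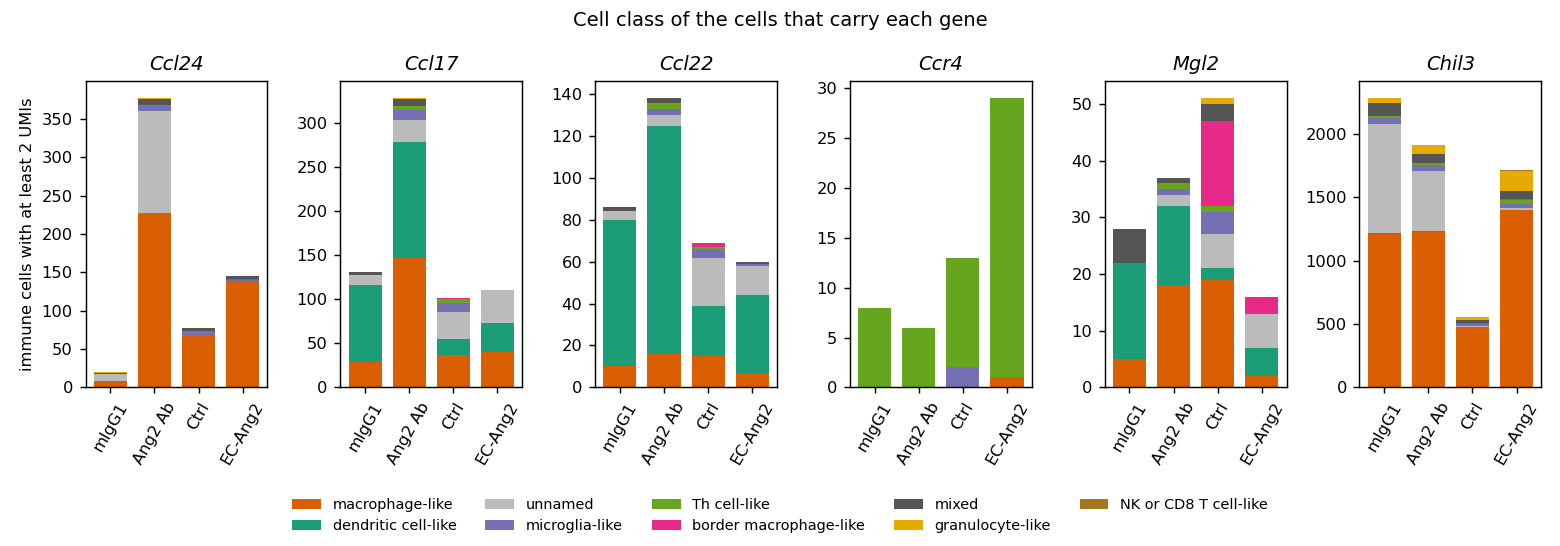
Number of immune cells with at least 2 UMIs of each gene (linear axes that start at 0 and differ between panels), split by cell class, in the 4 libraries. *Ccl24* bars are mainly macrophage-like or unnamed, *Ccl22* bars are mainly dendritic cell–like in the blockade pair, *Ccl17* bars join both, and *Ccr4* bars are Th cell–like but for 2 cells of Ctrl and 1 of EC-Ang2.

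*Ccr4*, on chromosome 9 from 114490316 to 114504916 (minus strand), encodes the receptor of both chemokines. Its level in immune cells was 2.63 CPM in mIgG1 (89 UMIs, 2.11 to 3.24), 2.84 CPM in Ang2 Ab (77 UMIs, 2.24 to 3.55), 3.31 CPM in Ctrl (71 UMIs, 2.59 to 4.18), and 5.90 CPM in EC-Ang2 (132 UMIs, 4.94 to 6.999). The intervals of mIgG1, Ang2 Ab, and Ctrl overlapped, and EC-Ang2 stood above them. The log2 ratio was 0.11 in the blockade pair (−0.35 to 0.57) and 0.83 in the overexpression pair (0.41 to 1.27). A UMI was found in 2.07%, 1.92%, 1.98%, and 3.11% of immune cells.

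Carriers of *Ccr4* numbered 8, 6, 13, and 29, of which 8, 6, 11, and 28 were Th cell–like, and the others were 2 microglia-like cells of Ctrl and 1 macrophage-like cell of EC-Ang2. Th cell–like cells stood at 36.9 CPM in Ctrl and 54.4 CPM in EC-Ang2 (log2 0.56), and they made up 9.33% and 14.3% of immune cells. Only these 2 libraries had the 10 carriers needed for a ranking, which was led by *Ctla4*, *Tnfrsf4*, *Il2ra*, and *Icos*, genes of activated and regulatory T cells. *Ctla4* was 18.7-fold and 18.2-fold higher in the carriers than in other immune cells of Ctrl and EC-Ang2. The ranking depended on the cut. With cells of at least 1 *Ccr4* UMI, the 4 libraries could be ranked, *Il17a* came before *Ctla4* and *Tnfrsf4*, and 5 of the 10 genes were kept. In the clusters led by *Foxp3* and *Izumo1r*, genes of regulatory T cells, *Ccr4* stood at 54.2 CPM in mIgG1, 51.8 CPM in Ang2 Ab, 123 CPM in Ctrl, and 137 CPM in EC-Ang2, from 7, 7, 15, and 10 UMIs. The Th cell–like clusters with *Il17a* and *Tnfsf11* among their leading genes stood at 55.8, 36.8, 39.5, and 41.6 CPM, so that in mIgG1 both kinds of cluster were at a like level. *Ccr3*, the receptor for CCL24 and no member of the 7, had 8, 11, 7, and 14 UMIs in the immune cells of the 4 libraries, too few for a ratio.

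*Mgl2*, on chromosome 11 from 70130329 to 70137550 (plus strand), encodes the lectin CD301b. Its level in immune cells was 4.88 CPM in mIgG1 (165 UMIs, 4.16 to 5.68), 8.89 CPM in Ang2 Ab (241 UMIs, 7.81 to 10.1), 19.3 CPM in Ctrl (413 UMIs, 17.5 to 21.2), and 3.80 CPM in EC-Ang2 (85 UMIs, 3.04 to 4.70). Ctrl was the highest, and mIgG1 and EC-Ang2 had overlapping intervals. The log2 ratio was 0.87 in the blockade pair (0.58 to 1.16) and −2.34 in the overexpression pair (−2.70 to −2.00), and at least 50% of the UMIs sat in 8, 14, 13, and 7 cells. Of the 31-base words in the last 500 bases of *Mgl2*, 15.1% occur in other genes, so part of its reads could have been lost or shared.

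The 28, 37, 51, and 16 carriers of *Mgl2* fell into several classes. Dendritic cell–like cells were 17, 14, 2, and 5 of them and macrophage-like cells 5, 18, 19, and 2, and border macrophage–like cells, a class found in the overexpression pair, were 15 in Ctrl and 3 in EC-Ang2. The unnamed cluster of that pair, led by *Kmo* and other genes of dendritic cells, held 6 carriers in Ctrl and 6 in EC-Ang2. These held 10.5% and 52.2% of the carriers' *Mgl2* UMIs. *Kmo*, the kynurenine monooxygenase gene of dendritic cells, led the marking genes and was 24.4-fold, 9.31-fold, 4.00-fold, and 18.9-fold higher in carriers than in the other immune cells of mIgG1, Ang2 Ab, Ctrl, and EC-Ang2. *Clec10a*, which encodes the related lectin CD301a, was 12.0-fold, 11.8-fold, 4.81-fold, and 26.0-fold higher.

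In macrophage-like cells *Mgl2* stood at 1.53 CPM for mIgG1 and 6.74 CPM for Ang2 Ab (log2 2.14, 1.40 to 2.94), whereas dendritic cell–like cells stood at a log2 ratio of −0.03 (−0.41 to 0.34). Macrophage-like cells stood at 13.3 CPM in Ctrl and 0.877 CPM in EC-Ang2 (log2 −3.92, −4.83 to −3.12). Dendritic cell–like cells stood at 36.5 and 63.5 CPM (log2 0.80, −0.51 to 2.23) and the unnamed cluster led by *Kmo* at 41.9 and 55.7 CPM (log2 0.41), and both intervals spanned 0. Border macrophage–like cells, of which there were 28 in Ctrl and 7 in EC-Ang2, stood at 731 and 119 CPM. *Mgl2* in macrophage-like cells lay higher in Ang2 Ab and lower in EC-Ang2 than in the control of each pair, as did *Ccl24*, *Ccl17*, and *Ccl22* in that class. These genes were picked for the blockade contrast or beside it, so nothing is read from the shared direction. The EC-Ang2 value of *Mgl2* rests on 14 UMIs. Single clusters could go the other way, as *Ccl24* did in that led by *Ms4a7* and *Apoe* (6.37 CPM in Ctrl and 71.5 CPM in EC-Ang2).

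*Chil3*, on chromosome 3 from 106147554 to 106167564 (minus strand), was the most broadly carried of the 7. Its level in immune cells was 1605 CPM in mIgG1 (54308 UMIs, 1591 to 1618), 1491 CPM in Ang2 Ab (40395 UMIs, 1476 to 1505), 441 CPM in Ctrl (9452 UMIs, 432 to 450.3), and 4467 CPM in EC-Ang2 (99909 UMIs, 4439 to 4495). mIgG1 and Ang2 Ab were close, and Ctrl and EC-Ang2 were the lowest and the highest of the 4. EC-Ang2 stood 10.1-fold above Ctrl (log2 3.34, 3.31 to 3.37), which 9 of 11087 genes exceeded, while Ang2 Ab stood at a log2 ratio of −0.11 to mIgG1 (−0.12 to −0.09). Ctrl itself stood at −1.86 to mIgG1. In the last 500 bases, 22.3% of the 31-base words of *Chil3* occur in *Chil4* or *Gm6522*, and *Chil4* had 0 to 2 UMIs in the immune cells of any library.

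The share of immune cells with a *Chil3* UMI was 73.6%, 64.7%, 27.6%, and 74.1%, or 55.6%, 50.1%, 18.4%, and 61.1% at 2000 UMIs per cell. In ECs it was found in 23.2%, 16.9%, 3.24%, and 39.2%, or thinned in 8.62%, 8.50%, 1.83%, and 13.9%. Single UMIs of *Chil3* were thus common in cells that should lack it, and the level in barcodes close to empty moved in the same order, with 735, 673, 528, and 1940 CPM. At least 50% of the UMIs sat in 348, 273, 87, and 273 immune cells, and the cell with the most held 426, 436, 269, and 850.

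The 2279, 1911, 555, and 1711 carriers of *Chil3* held a median of 14, 11, 10, and 35 of its UMIs, and 1206, 1225, 479, and 1398 of them were macrophage-like. *Thbs1* led the genes that marked them, and *F13a1*, *Saa3*, *Mgst1*, *Ly6c2*, *Ms4a8a*, *Arg1*, *Hp*, *Slpi*, and *Rhov* followed. *Thbs1*, which encodes thrombospondin 1, was 2.85-fold, 2.47-fold, 3.14-fold, and 3.92-fold higher in carriers than in the other immune cells of mIgG1, Ang2 Ab, Ctrl, and EC-Ang2. *Ly6c2*, the surface antigen gene of inflammatory monocytes, was 1.77-fold, 2.49-fold, 3.85-fold, and 2.88-fold higher. Of the *Ccl24* carriers, 90.0%, 83.3%, 53.8%, and 88.3% also carried *Chil3*, where the carriers of *Chil3* made up 61.2%, 52.3%, 20.4%, and 61.2% of immune cells. Macrophage-like cells, which many *Ccl24* carriers were, carried *Chil3* more often than immune cells as a whole. Of these cells 1206 of 1657, 1225 of 1822, 479 of 959, and 1398 of 1730 were *Chil3* carriers. The shared carriers were not compared within that class.

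In macrophage-like cells *Chil3* went from 864 CPM in Ctrl to 5719.9 CPM in EC-Ang2, a 6.62-fold ratio (log2 2.73, 2.69 to 2.76) that was smaller than that over all immune cells. The highest EC-Ang2 level was in a macrophage-like cluster led by *Dmkn*, *Gm9733*, *Vcan*, and *Ifitm6*, where it went from 1831 to 17450.3 CPM. In Ctrl a granulocyte-like cluster led by *Ngp* and *Camp* stood higher, at 2993 CPM in 26 cells. In the cluster led by *Klra2*, *Plac8*, and *Ccr2* it went from 1046 to 8014 CPM, and in that led by *Gpnmb* from 715 to 4605 CPM. Granulocyte-like cells went from 694 to 2575 CPM (log2 1.89), and microglia-like cells from 37.3 to 918 CPM (log2 4.62). Of the 1224 EC-Ang2 UMIs of microglia-like cells, 1028 were in a cluster led by *Esco2* and *Top2a*. It had 22 EC-Ang2 cells, and 98.1% of its cells were cycling. The microglia-like cluster with *Gpr34* and *P2ry12* among its leading genes went from 21.5 to 321 CPM. ECs, which should lack the gene, went from 6.38 to 68.0 CPM (log2 3.41), and barcodes close to empty stood at a log2 ratio of 1.88. The part of free RNA in the class values was not tested.

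In the blockade pair the direction differed by class for *Chil3*. Macrophage-like cells stood at 2559.9 CPM for mIgG1 and 2113 CPM for Ang2 Ab (log2 −0.28), and unnamed clusters at 1428 and 1713 CPM (log2 0.26). The cluster led by *Ccr2* stood at 2601 and 1648 CPM, and the unnamed cluster led by *Atp6v0d2* and *Fabp5* at 1557 and 2648 CPM. The unnamed cluster led by *Ms4a7* and *Apoe* went the other way, from 1878 to 1578 CPM.

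*Retnla*, on chromosome 16 from 48842551 to 48844461 (plus strand), was the only one of the 7 without a level in immune cells. Immune cells held 1 UMI in Ang2 Ab and 0 in each of the other libraries. A count of 0 among the 3725 immune cells of mIgG1 allows a level of up to 0.0886 CPM, and in Ctrl and EC-Ang2 up to 0.140 and 0.134 CPM. Over all barcodes, however, the libraries held 355, 348, 3, and 10 *Retnla* UMIs, nearly all in barcodes far below the size of a cell. Barcodes of 10 to 100 UMIs held 129, 100, 0, and 4, and those above 100 and below 500 UMIs held 148, 173, 0, and 0. The *Retnla* UMIs thus lay in small barcodes of the blockade libraries and hardly in those of the overexpression pair.

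The small barcodes with *Retnla* held more transcripts of lung epithelium, and of macrophages and MHC class II, than those without it. In mIgG1 barcodes of 10 to 100 UMIs, *Scgb1a1*, which encodes the club cell secretory protein, was 143-fold higher beside *Retnla* than in barcodes without it, and *Sftpc*, which encodes surfactant protein C of alveolar cells, was 20.2-fold higher. *Pf4*, a chemokine gene of platelets and some macrophages, was 51.0-fold higher, and *H2-Eb1* and *Cd74*, genes of MHC class II presentation, 4.14-fold and 2.14-fold. In Ang2 Ab *Sftpc* was 16.8-fold higher, *H2-Aa* 4.44-fold, *Cd74* 3.88-fold, and *C1qa* 2.45-fold, and *Scgb1a1* was not among the 10 genes with the highest ratio there. Barcodes of that size held 700, 690, 0, and 1 *Scgb1a1* UMIs and 2747, 2682, 0, and 0 *Sftpc* UMIs in mIgG1, Ang2 Ab, Ctrl, and EC-Ang2. The 2 genes thus followed the same libraries as *Retnla*, and their part in the *Retnla* counts was not tested. The SC should lack both, and whether the *Retnla* UMIs came from SC tissue was not tested.

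**Figure D5:**
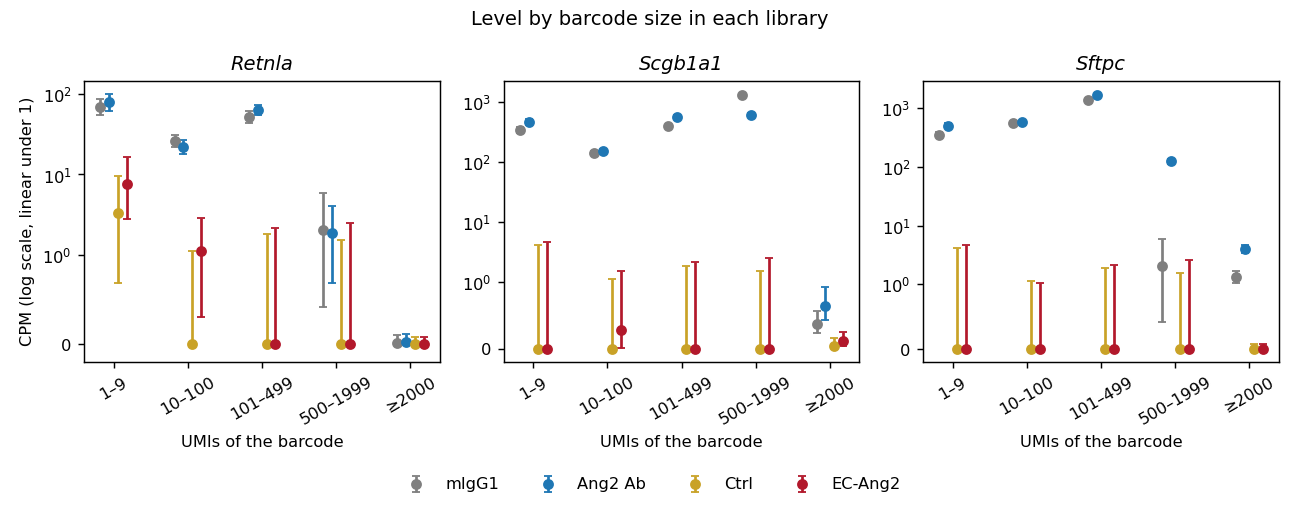
Level (CPM, log scale that is linear under 1) of *Retnla*, *Scgb1a1*, and *Sftpc* by the number of UMIs of a barcode in each library, with exact 95% Poisson intervals. In barcodes under 500 UMIs the mIgG1 and Ang2 Ab points lie above those of Ctrl and EC-Ang2, and in barcodes of at least 2000 UMIs *Retnla* is at or near 0 in the 4 libraries.

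Most other genes listed for alternative activation stood within 2-fold in both pairs. For this and the next lists, 2.00% of all genes compared in immune cells were 2-fold higher and 0.525% lower in the blockade pair. In the overexpression pair the shares were 1.83% and 9.81%. Of 20 genes listed for the pathway, 18 could be compared, and in the blockade pair 3 were at least 2-fold higher and 0 lower, with a median log2 ratio of 0.44 where the median over all genes was 0.07. The 3 were *Pdcd1lg2*, from 11.1 to 33.4 CPM (log2 1.59), *Cd209a*, a lectin gene of dendritic cells, from 1.65 to 8.75 CPM (log2 2.40), and *Cdh1*, which encodes E-cadherin (log2 1.30). *Arg1* stood at a log2 ratio of 0.44, and *Mrc1*, which encodes the mannose receptor, at 0.74. The receptor gene *Il4ra* stood at 0.32 and *Stat6* at 0.05. Within macrophage-like cells of the blockade pair, 4 of 16 genes compared were at least 2-fold higher and 0 lower. Of the 9414 genes compared in that class, 1.68% were higher and 0.531% lower.

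In the overexpression pair 3 of the 18 genes were at least 2-fold higher and 1 lower, with a median of −0.14 against −0.15 over all genes. *Arg1* went from 1390.1 CPM in Ctrl to 4157 CPM in EC-Ang2 (log2 1.58), *Pparg*, a nuclear receptor gene, stood at 1.34, and *Fn1*, which encodes fibronectin, at 1.28. *Cd209a* went the other way, at −2.17. Within macrophage-like cells, which made up 35.2% of immune cells in Ctrl and 61.9% in EC-Ang2, 0 of 16 genes compared were at least 2-fold higher and 2 were lower, with *Arg1* at 0.90, *Pparg* at 0.75, and *Fn1* at 0.77. Of the 9497 genes compared in that class, 1.38% were higher and 4.49% lower.

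Among 15 listed receptors and cytokines linked to the chemokines, 10 could be compared in the blockade pair and 1 was at least 2-fold higher. It was *Il13*, which went from 0.266 CPM (9 UMIs) in mIgG1 to 6.27 CPM (170 UMIs) in Ang2 Ab, of which 108 UMIs sat in 1 cell. *Il4* had 0, 6, 0, and 1 UMIs in the immune cells of the 4 libraries. For the overexpression pair 9 could be compared, *Il13* (log2 1.89), *Csf2* (2.19), and *Ackr1* (1.25) were at least 2-fold higher, and *Csf1r*, the receptor gene for the growth factor of macrophages and microglia, was lower (−1.51). In EC-Ang2, 1 cell held 30 of the 62 *Il13* UMIs, and 1 cell held 132 of the 712 *Csf2* UMIs. The authors list *Ackr1* among genes regulated in capillary-venous ECs, and the part of EC transcripts in its value was not tested.

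Of 16 genes of classical activation, 3 were at least 2-fold higher and 0 lower in the blockade pair (median 0.31), namely *Tnf* (log2 1.34), *Il6* (1.49), and *Cxcl10* (1.43). In the overexpression pair 1 was higher and 4 were lower (median −0.33), with *Tnf* at −3.19, where 1.83% and 9.81% of all genes compared were. Marker genes of other cells differed as well. Of the granulocyte markers, 4 of the 5 compared were at least 2-fold higher in the blockade pair (median log2 ratio 1.15), whereas 2 of 6 were at least 2-fold lower in the overexpression pair (median −0.68). Of the microglia markers, 8 of 8 were at least 2-fold lower in the overexpression pair (median −3.31). Of the 7 markers of eosinophils, basophils, and mast cells, only *Siglecf* had enough UMIs to be compared, with a log2 ratio of 0.34 for Ang2 Ab over mIgG1 and −2.22 for EC-Ang2 over Ctrl. Their part in the levels over all immune cells was not tested.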

How the data were processed

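Immune cells and ECs sorted from SCs of EAE mice were sequenced as 4 10x Genomics 3′ v2 libraries, 1 per condition. The authors deposited the UMI counts per gene and barcode of every droplet, without normalization, and their processing notes name Cell Ranger 2.1.1, Seurat 2.3.4, and mm10. The deposited counts were used as they stand. The sources do not give how empty droplets were told from cells, so barcodes of at least 2000 UMIs were kept. Barcodes were split by 9 immune and 8 EC genes (at least 3 UMIs, 75% of panel UMIs). Doublets were scored with Scrublet and kept in the values given, as were cycling cells and those with 10% or more mitochondrial UMIs. Alternatives without them are in the closing section. Scrublet's own threshold marked 176, 226, 1, and 107 barcodes (mIgG1, Ang2 Ab, Ctrl, and EC-Ang2), so doublets were set by score at 0.8% per 1000 barcodes (393, 450.0, 353, and 236). Such scores miss doublets of like cells.

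The 2 libraries of a pair were joined, immune cells only, through canonical correlation in Seurat 5.3.0 (R 4.3.3) on 2000 variable genes, 30 dimensions, and resolution 1.2, with the 7 genes left out. A class other than macrophage-like needed 3 detected markers and a mean log2 ratio of 1. Macrophage-like was the name for clusters that met no other class. Such clusters needed 6 detected macrophage markers and microglia markers lower on average than in the other cells, without a minimum ratio. These rules were set after the clusters had been seen. Clusters short of that, or with markers of several classes, were called unnamed or mixed. Levels, intervals, and ratios were computed in Python 3.11.15 with scipy 1.17.1. A gene was compared from 50 UMIs per pair on, and called past 2-fold. No test could be made between single libraries. In data simulated for Ang2 Ab over mIgG1, 200 of 11429 genes changed 4-fold were all called (100%), and 95.6% of intervals held the true ratio. For EC-Ang2 over Ctrl, with 11087 genes, the shares were 100% and 95.4%. The simulated counts were independent Poisson draws, the model behind the intervals. The shares therefore cannot show how the intervals hold where few cells carry most of the UMIs.

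Named genes are the 7, the 10 genes with the highest median ratio of CPM in carriers to other immune cells (a UMI in 20% of carriers of each library with at least 10 carriers), and genes of the lists. The genes and the lists were chosen with earlier results of these data known. Depth was 52084739 to 66631583 UMIs per library, and intervals and limits for a count of 0 (3 counts) cover counting error only. Gene coordinates are GENCODE on GRCm38. No column of per-sample values was left aside. A few listed marker genes are not analysed here.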

Additional observations from a re-analysis of the deposited data

Results flagged for a closer look

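*Chil3* differed in direction between classes in the blockade pair: its log2 ratio, Ang2 Ab over mIgG1, was 0.26 in the unnamed clusters and −0.62 in Th cell–like cells, and the difference between classes was not tested. The unnamed clusters went in both directions. That led by *Ms4a7* and *Apoe* went from 1878 to 1578 CPM, that led by *Atp6v0d2* from 1557 to 2648 CPM, and that led by *Tspan7* from 647 to 783 CPM. The Th cell–like ratio rests on 242 and 149 UMIs, and 7 mIgG1 and 4 Ang2 Ab cells of that class had at least 5. The ratio in ECs of the same libraries, which should lack the gene, was −0.17.

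*Ccl17* and *Ccl22* differed in direction between classes in the overexpression pair. In the unnamed cluster led by *Kmo* and *H2-DMb2*, the log2 ratio, EC-Ang2 over Ctrl, was 0.54 for *Ccl17* and 0.47 for *Ccl22*. In microglia-like cells it was −5.21 for *Ccl17* and −3.61 for *Ccl22*, from 606 and 133 UMIs in Ctrl against 3 and 2 in EC-Ang2. These differences between classes were not tested, and 2 Ctrl cells held 50% of the *Ccl17* UMIs of that class. Most of its Ctrl UMIs were in 2 clusters of largely cycling cells. That led by *Cdkn3* (95.2% cycling) held 218 of *Ccl17* and 5 of *Ccl22*, and that led by *Esco2* (98.1% cycling) held 329 and 122. The microglia-like cluster with *Gpr34* and *P2ry12* among its leading genes held 57 and 3.

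Barcodes of at least 500 but under 2000 UMIs, which lie below the minimum used for the levels, held some of the genes above the control of their pair and others below it. In immune barcodes of that size *Ccl24* stood at 130.2 CPM and *Ccl17* at 90.1 CPM in Ang2 Ab, where mIgG1 had 6.62 and 24.8 CPM. *Ccl22* stood at 17.6 CPM in EC-Ang2 and 4.79 CPM in Ctrl, and *Chil3* at 2241 CPM in EC-Ang2 and 71.8 CPM in Ctrl. *Ccl22* was lower in Ang2 Ab (11.3 CPM, 16 UMIs) than in mIgG1 (44.7 CPM, 27 UMIs), the reverse of its direction in larger barcodes. A single mIgG1 barcode held 16 of those 27 UMIs, so the reversal rests largely on it. *Ccl17* and *Ccl24* were at 16.5 and 15.3 CPM in EC-Ang2 where Ctrl had 26.7 and 28.7 CPM. *Retnla* had 129 UMIs in mIgG1 and 100 in Ang2 Ab barcodes of 10 to 100 UMIs, where Ctrl had 0.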

How the results depend on the processing

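With 1 library per condition, none of the ratios carries an error for the spread between mice. No paired analysis was possible because each condition had 1 library. The direction of the *Ccl24* and *Ccl17* ratios in the blockade pair and of the *Chil3* ratio in the overexpression pair was the same under the 12 alternatives run for each, with ranges of 5.16 to 5.62, 2.06 to 3.83, and 2.73 to 3.53 on the log2 scale. *Ccl24* was at 5.62 without the cell with the most UMIs, outside its interval of 5.08 to 5.46. *Ccl17* was at 2.29 without doublets, 2.49 without cycling cells, 2.06 as the mean of single-cell CPM, 2.28 over all barcodes, and 3.83 in macrophage-like cells. *Chil3* was at 3.38 with barcodes from 1000 UMIs on, 3.29 without doublets, 3.17 without cycling cells, 3.53 as the mean of single-cell CPM, and 2.73 in macrophage-like cells. The *Ccl24* ratio in the overexpression pair was 0.13 over all immune cells and −0.41 in macrophage-like cells. Of the 9 ratios of other members, 2 were past 2-fold over all immune cells and 4 in macrophage-like cells. Genes at least 2-fold higher in the blockade pair numbered 229, or 790.0 at 1.5-fold and 372 from 20 UMIs on, and those lower 60, or 276 and 131. In the overexpression pair 203 were higher, or 613 at 1.5-fold and 131 in macrophage-like cells, and 1088 lower, or 2215 and 426. The causes were not tested, apart from the lower fold and the UMI minimum, which by construction call or admit more genes. For the carriers, the number moved past 1.5-fold in 31 of 72 alternatives, where other UMI cuts change it by construction. The macrophage-like share of carriers left its interval in 24 of 93. At most 6 of the 10 marking genes were kept in 9 of 21. The subtraction of the EC level, the removal of barcodes found in several libraries, and the marking genes within macrophage-like cells were added after seeing the data.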

Other observations

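Of 17 other CC chemokines listed, 12 could be compared in immune cells of the blockade pair, with 6 at least 2-fold higher and 1 lower in Ang2 Ab (median log2 ratio 0.98), where 2.00% and 0.525% of all genes compared were. *Ccl7*, a ligand of CCR2 and other receptors for monocytes, went from 34.1 CPM in mIgG1 to 113 CPM in Ang2 Ab, *Ccl2* from 134 to 366 CPM, and *Ccl12* from 137 to 335 CPM. *Ccl1*, a ligand of CCR8 made by T cells, was lower (89.3 and 38.6 CPM). In the overexpression pair 13 could be compared, 3 were higher and 4 lower (median −0.21), where 1.83% and 9.81% of all genes compared were. *Ccl12* went from 1570.1 CPM in Ctrl to 170 CPM in EC-Ang2, *Ccl3* from 1803 to 344 CPM, and *Ccl4* from 3786 to 759 CPM, while *Ccl6* went from 869.7 to 3712 CPM and *Ccl9* from 529.8 to 1149 CPM. *Ccl20*, a ligand of CCR6, had the largest ratio of the list, from 1 UMI in Ctrl to 169 in EC-Ang2 (log2 7.34, 4.84 to 12.7). These levels are over all immune cells, of which microglia-like cells made up 35.5% in Ctrl and 4.44% in EC-Ang2. The part of these shares in the levels was not tested. Within macrophage-like cells 10 of the chemokines could be compared, 1 was higher and 4 were lower, where 1.38% and 4.49% of all genes compared were. Of the 9 other CC chemokine receptors, 7 and 5 could be compared in immune cells of the 2 pairs, and 0 stood past 2-fold.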
